A study of Rattus norvegicus with 12 samples.

Results

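Late-numbered miRNAs are those whose registry number is 1000 or higher, whatever letter, arm or copy suffix follows. Rows of the heart and exosome tables were taken by that number alone, without using any measured value. This gave 75 of the 583 miRNAs listed in either table, with 73 of 574 in the heart table, 34 of 367 in the exosome table and 32 in both. Only miR-3568 and miR-3593-3p were listed in the exosome table alone.

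The data were small RNA libraries of SD rats, 6 from heart and 6 from serum. The design text describes a left coronary artery ligated for 30 min and then 1 week of perfusion. The authors deposited a heart table and a table called exosome, which is taken here to hold the serum samples because no others remain, and each sets a group M against a group CK. What CK and M stand for, which of them had the operation, which labelled sample belongs to either, and the age and number of the animals are not given in the labels, so every difference below is M against CK and nothing more. Reads of 3 libraries per group could be worked back from the deposited group means, and these libraries are numbered by increasing depth within a group. Number 1 of one group therefore has no link to number 1 of another.

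A miRNA is cut from a hairpin transcript, one arm of which is loaded into an Argonaute protein and pairs with messenger RNAs through its seed, the bases near its 5′ end. Registry numbers follow the order of discovery, so high numbers mark miRNAs that came mostly from deep sequencing. Many of these are weakly expressed, are limited to rodents, or lie inside other genes, including genes of small nucleolar and small Cajal body RNAs, which guide chemical modification of other RNAs.

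Mature sequences, taken from RefSeq (assembly GRCr8), are shown for the hairpins on which the results turn, with the seed (bases 2 to 8) in capitals. The 4 products of the separate hairpins miR-1843a and miR-1843b are shown first because their 5p arms can hardly be told apart by sequence.
miR-1843a-5p: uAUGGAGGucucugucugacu
miR-1843b-5p: aUGGAGGUcucugucugacuuag
miR-1843a-3p: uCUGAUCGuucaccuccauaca
miR-1843b-3p: uCUGAUCGuuccccuccauac
The 5p arms share the run auggaggucucugucugacu, 20 bases long, which starts at base 2 of the a form and base 1 of the b form. This offset of the start gives them different seeds. The 3p arms have the same seed and differ within their common length by A12C (the base of miR-1843a-3p first, positions counted from 1 at the 5′ end).

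The next are miR-6321, the member that passed the heart test, and both arms of miR-3594, which had 0 reads in every exosome library of M.
miR-6321: uACUGCAGugaguucuaugaagc
miR-3594-3p: cACACCGCcucugcccgcuagu
miR-3594-5p: cCCAGGGCagagcagugugaa
The RefSeq hairpin of miR-6321 is 141 bases long and holds the mature sequence at base 41 and once more, with 1 mismatch, at base 90. The remaining sequences belong to the 2 hairpins whose arms were used in different proportions in the heart and exosome tables, and to the most abundant members of each table.
miR-3068-5p: uUGGAGUUcaugcaaguucuaacca
miR-3068-3p: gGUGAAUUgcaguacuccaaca
miR-3559-5p: uGACAGACuuaguacuacauga
miR-3559-3p: aUGUAGUAcugagucugucgug
miR-1839-5p: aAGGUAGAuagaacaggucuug
miR-1306-5p: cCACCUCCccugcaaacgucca

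Estimated depth was 2253000 to 6610000 reads per heart library and 1696000 to 5328000 per exosome library. A level below is the reads of a library divided by its size factor, the authors' scale. The labels do not tie the libraries to separate animals, and the p-values rest on the spread among these libraries, which may be technical. The labelled tissues were checked against lists of marker miRNAs. The heart muscle list (miR-1-3p, miR-133a-3p, miR-208a-3p and miR-499-5p) was listed in full in the heart table, with summed shares of 74039 ppm of the summed CK means and 65377 ppm of the M means. Its members did not go one way in heart: from CK to M, miR-1-3p went from 48271 to 52671 ppm, miR-133a-3p from 20622 to 9368, miR-208a-3p from 287 to 134 and miR-499-5p from 4859 to 3203. Among exosome miRNAs 3 of 4 were listed, miR-208a-3p being absent from the list, and the sums were 1955 and 1866 ppm. The blood list (miR-451-5p, miR-486, miR-223-3p and miR-150-5p, 4 of 4 in both tables) summed to 22103 ppm in CK and 9585 ppm in M in heart, and to 141861 and 141710 ppm in the exosome table. Most of the heart sum was miR-486 (19144 ppm in CK and 7943 in M), and miR-150-5p went from 2440 to 1143 ppm, miR-451-5p from 478 to 437 and miR-223-3p from 40.5 to 62.8. The near-equal exosome sums hid members going opposite ways. There miR-150-5p went from 10043 to 5296 ppm. The others were larger in M: miR-486 (116455 to 118921), miR-223-3p (11767 to 13527) and miR-451-5p (3596 to 3966). The liver list (miR-122-5p and miR-192-5p) summed to 269 and 326 ppm in heart and to 14550 and 7379 ppm in the exosome table, CK first. The part of these marker shifts in the results below was not tested.

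Late-numbered miRNAs were scarce in both tables. In heart the median of their mean levels was 4.78, against 34.9 for the 501 older miRNAs, and 44 of the 73 (60.3%) lay under 10, against 35.9% of the older ones. Together they held 0.109% of the heart reads and 0.212% of the exosome reads. The exosome median was 43.7 against 124.7 for older miRNAs, on a scale that was set separately from that of heart. The largest mean of a late-numbered miRNA was 938.7 in heart (miR-1839-5p) and 1025 in the exosome table (miR-1306-5p), while the most abundant older miRNA had a mean of 559843 in heart.

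A smaller share of them than of older miRNAs was listed. Of the 73 heart members, 32 (43.8%) also appeared in the exosome table, against 65.1% of the older miRNAs in the heart table. In the other direction, 94.1% of the exosome members were listed in heart, against 97.9% of the older ones. RefSeq names 126 late-numbered mature rat miRNAs, of which 65 (51.6%) were listed in heart and 31 (24.6%) in the exosome table. For the 567 older names the counts were 455 (80.2%) and 296 (52.2%). The late and older lists also differ in abundance, as given above, and its part in presence was not tested.

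The sequences of the listed members differed from older ones in a few features. A RefSeq mature sequence was found for 66 of the 75 members (88%), and 1 of these names had more than 1 sequence. Of the other 65, only 5 (7.69%) shared their seed with another listed miRNA, against 30.4% of the older ones. Besides the miR-1843 3p pair these were miR-1193-3p with miR-370-5p (seed AGGUCAC), miR-3065-5p with miR-7a-1-3p (CAACAAA) and miR-3573-5p with miR-423-5p (GAGGGGC). miR-3084a-5p, the name with more than 1 sequence, and miR-3084b-5p and miR-3084a-1-5p, without a RefSeq sequence, were outside this count. Any seed shared among such names is missed, also among older miRNAs without a sequence. Median GC content was 52.4% against 47.6% in older miRNAs, and 18 of 65 (27.7%) had at least 60% GC against 13.9%. An arm was part of the name for 42 of the 75 members (56%) against 93.5% of the older ones.

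In heart the most abundant members were miR-1839-5p, miR-3068-5p and miR-1843a-5p, and all 3 come from hairpins that RefSeq names as small Cajal body or nucleolar RNA genes (Scarna15, Snora58 and Scarna3). The levels of miR-1839-5p in CK libraries 1 to 3 were 926, 901 and 1145, and in M libraries 1134, 680 and 847. Those of miR-3068-5p were 737, 682 and 974 in CK and 735, 367 and 795 in M. Those of miR-1843a-5p were 632, 805 and 699 in CK and 732, 571 and 841 in M. The CK and M libraries overlapped for all 3, and M library 2 was the lowest of the 6 in each case. In order of mean level miR-6329 (277), miR-1843a-3p (265), miR-6215 (249), miR-3559-5p (247), miR-3068-3p (244), miR-1843b-5p (224) and miR-1249 (213) followed, and the library values of neighbours in this order overlapped. After miR-3559-3p (192), no other member reached 100.

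**Figure D1:**
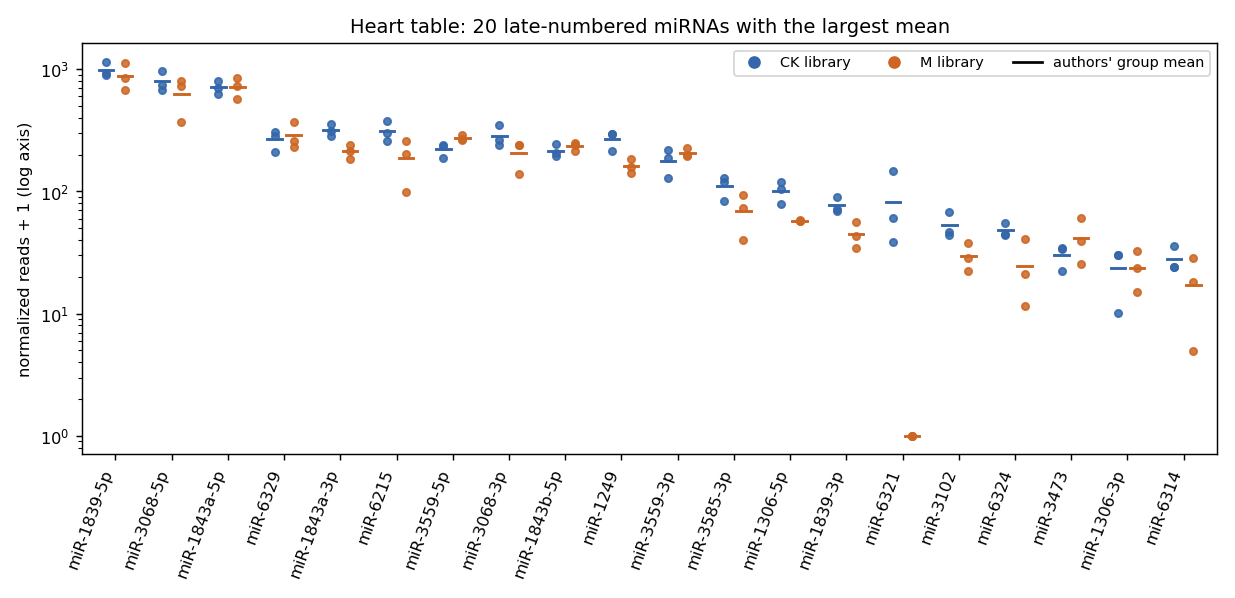
Heart levels (reads divided by size factor, plus 1, log axis) of the more abundant late-numbered miRNAs, 1 point per CK or M library. For miR-6321 the 3 CK libraries lie at 37.8, 59.3 and 147 and the 3 M libraries at 0, while miR-1839-5p, miR-3068-5p and miR-1843a-5p overlap between groups.

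One late-numbered miRNA passed the threshold in heart, miR-6321, whose hairpin lies in Rufy3, a gene for a protein of vesicle transport. It had 36, 82 and 228 reads in the CK libraries, which are levels of 37.8, 59.3 and 147. All 3 M libraries had 0 reads, so the groups did not overlap. In the authors' deposited table its p was 2.22e-05 and its adjusted p 0.0127. It was the only one of the 73 members with an adjusted p below 0.05, beside 0.697% of all heart miRNAs. The authors' deposited table gave no other member a p below 0.05 before adjustment, beside 7.67% of all heart miRNAs with one. Its CK mean was 38.3 times the mean that 3 reads in the shallowest M library would give, and 22.9 times without CK library 3. limma on log2(level + 1) gave a log2 change of −6.13 (SE 0.65) with an adjusted p of 0.000355, and it called 1 of 73 members beside 0.601% of 499 miRNAs. In bulk heart tissue fewer cells of a type and less RNA per cell cannot be told apart. When single libraries were left out the limma adjusted p ran from 0.0397 to 0.155, passing only without CK library 1. In the exosome table miR-6321 had 44 reads in CK library 2 and none in the other 5 libraries.

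Many other heart members lay lower in M without passing the test. By the deposited means 44 of 73 (60.3%) were lower in M and 29 higher, where 48.6% of all heart miRNAs were lower. The median log2 fold (mean + 1) was −0.31, against 0.02 over all 574. Scaling by the summed means in place of the authors' size factors shifted every fold by −0.17 on the log2 scale and put 51 members (69.9%) lower, against 56.8% of all. The summed level of the members was 5051, 5365 and 5598 in the CK libraries and 4921, 3627 and 4980 in the M libraries. Each M library thus summed to less than each CK library, with M library 2 the lowest. In limma 14 members were lower and 0 higher at an unadjusted p below 0.05, beside 7.62% lower and 8.02% higher among all 499. Apart from miR-6321 none passed adjustment. Among the 14 were miR-3072, miR-3099, miR-5132-3p, miR-3566 and miR-3583-3p, with 5 to 13 heart reads each over all libraries. The shallowest heart library was M library 1 (2253000 estimated reads), and the part of depth in these counts was not tested.

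All 3 M libraries lay below all 3 CK libraries for 14 of the 73 heart members, beside 10% of the solved heart miRNAs. They lay above for 2 members, beside 10.6%. Of the 14, 6 had a larger group mean under 10, and the other 8 were miR-6321 and the 7 that follow. In the same table miR-486 and miR-150-5p of the blood list, and 3 of the 4 heart muscle markers, also had smaller shares in M, while miR-223-3p and miR-1-3p had larger ones, as given above.

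Among these 7, miR-1843a-3p had levels of 311, 356 and 286 in CK and 183, 212 and 240 in M, with a limma log2 change of −0.59 (SE 0.25, adjusted p = 0.26). Levels of miR-1249, from a hairpin in Kiaa0930, were 295, 292 and 214 in CK and 140, 158 and 182 in M, a log2 change of −0.73 (SE 0.26, limma adjusted p = 0.19). Levels of miR-1306-5p were 103, 77.4 and 119 in CK and 57.3, 55.8 and 56.5 in M, a log2 change of −0.79 (SE 0.30, limma adjusted p = 0.205). Its hairpin lies in Dgcr8, the gene of the RNA-binding partner of Drosha in the first cut of miRNA hairpins. The smaller levels were those of miR-1839-3p (68.3, 70.2 and 89.6 against 55.2, 33.3 and 42.3), miR-3102 (45.2, 67.3 and 43.2 against 21.2, 37.2 and 27.3) and miR-6324 (44.1, 43.4 and 54.2 against 10.6, 40.1 and 20.3). For miR-3542 they were 16.8, 21.7 and 25.8 against 4.25, 8.81 and 14.1. In none of the 7 was the gap between the groups large enough to pass adjustment in limma or in the authors' deposited table. The 2 members with every M library above every CK library were miR-3559-5p (240, 234 and 186 in CK, 289, 270 and 265 in M) and miR-3064-5p (20, 17.4 and 20.6 in CK, 25.5, 21.5 and 21.2 in M), with limma adjusted p of 0.541 and 0.811.

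**Figure D2:**
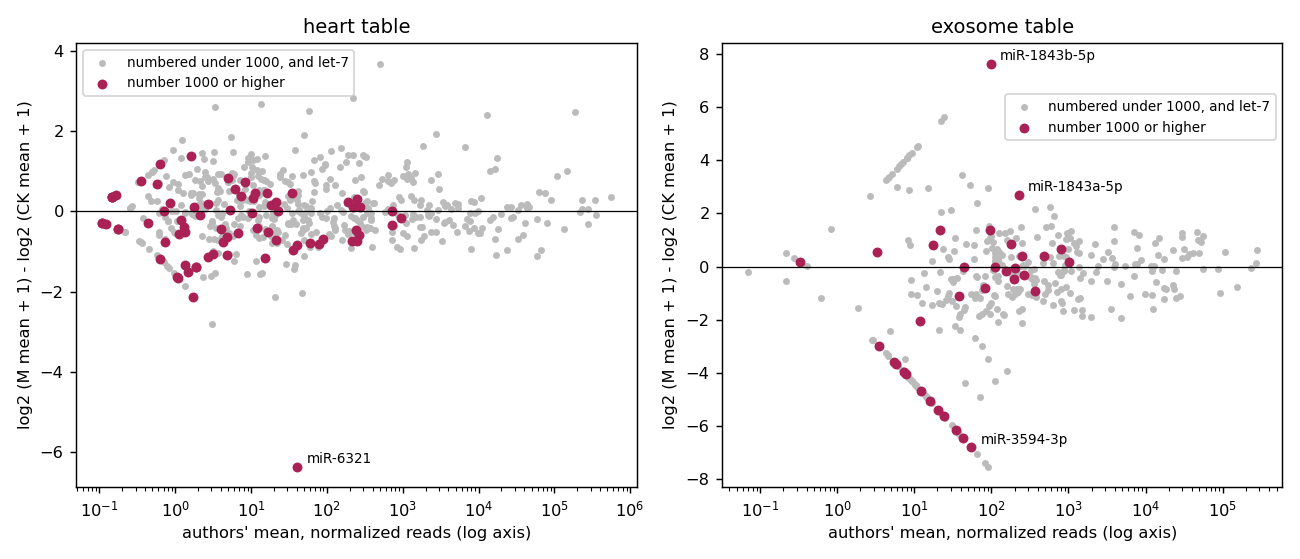
Log2 fold of M against CK, computed from the deposited means plus 1, against mean level (log axis) for late-numbered miRNAs over all other miRNAs in each table. miR-6321 stands lowest in heart, with 44 of 73 members below 0, and miR-1843b-5p stands highest among the members in the exosome table, with 22 of 34 below 0.

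The split between arms of the 3 hairpins with small Cajal body or nucleolar RNA names was compared between the heart groups after the values had been seen. The 5p share of miR-1839 reads was 93.1, 92.8 and 92.7% in the CK libraries and 95.4, 95.3 and 95.2% in the M libraries. For miR-1843a it was 67, 69.3 and 71% in CK and 80, 72.9 and 77.8% in M. The groups did not overlap for either hairpin, and the smallest 2-sided p that an exact permutation test of 3 libraries against 3 allows is 0.1. For miR-3068 the shares overlapped, at 73.6, 74.2 and 73.8% in CK and 75.4, 72.7 and 77% in M. Those of miR-1306, miR-1843b and miR-3559 also overlapped between the heart groups. How often older hairpins separate in this way was not tested. The 3p reads of miR-1839 and miR-1843a are those given above as lower in M, so these shares are not separate evidence.

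In the exosome table the most abundant member was miR-1306-5p, with levels of 1208, 583 and 1115 in CK and 1736, 1189 and 319 in M. The order then ran miR-3559-5p (mean 800), miR-1839-5p (479), miR-6216 (364), miR-1249 (267), miR-6324 (246), miR-1843a-5p (228) and miR-3559-3p (203). Single libraries strayed far from their group. For miR-6216, which RefSeq places in no other gene, levels were 556, 548 and 326 in CK and 0, 491 and 262 in M. For miR-6328 they were 0, 334 and 43.2 in CK and 150, 193 and 346 in M.

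**Figure D3:**
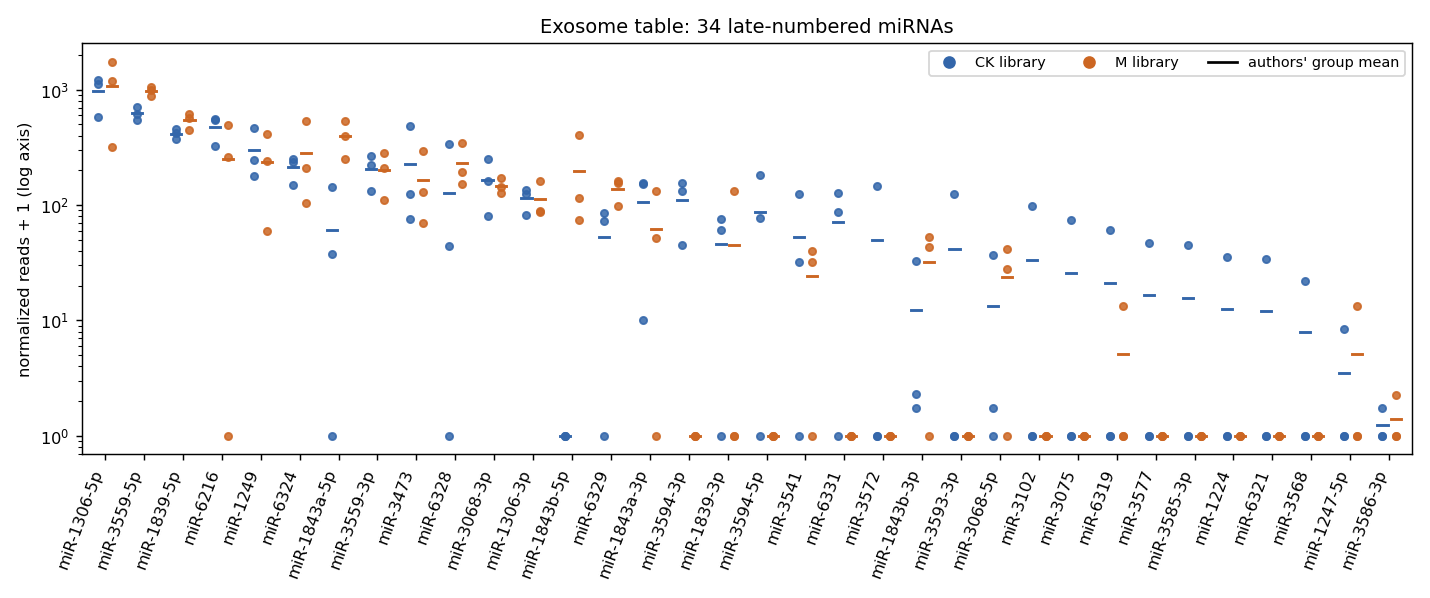
Exosome levels (reads divided by size factor, plus 1, log axis) of late-numbered miRNAs, 1 point per CK or M library, with dashes at the authors' group means. The spread within a group is wide, as for miR-6216 (0 to 491 in M), and for miR-1843b-5p the CK libraries are at 0 and the M libraries at 408, 114 and 72.7.

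Detection in the exosome table was often a matter of 1 library. Of the 34 members, 9 (26.5%) had reads in all 6 libraries, beside 37.1% of all solved exosome miRNAs, and 9 (26.5%) had reads in just 1, beside 20.8%. Those 9 were in CK library 1 (2 members), CK library 2 (4) and CK library 3 (3), with 28 to 178 reads each. They include miR-3075, with 178 reads in CK library 3, miR-3593-3p, with 164 in CK library 2, and miR-3572, with 111 in CK library 1. miR-1224 had 83 reads in CK library 3 and miR-3577 had 62 in CK library 2. In all, 12 of 34 members (35.3%) had a mean of 0 in M, beside 16.1% of all exosome miRNAs, and 1 had a mean of 0 in CK, beside 5.72%. CK libraries 2 and 3 were deeper than every M library (2961000 and 5328000 estimated reads against 1855000 to 1961000), and the part of depth in these counts was not tested.

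One late-numbered miRNA passed the authors' threshold in the exosome table, miR-1843b-5p, from a hairpin in Cop1, the gene of a ubiquitin ligase. It had 0 reads in all 3 CK libraries and 313, 92 and 59 reads in M, which are levels of 408, 114 and 72.7. In the authors' deposited table its p was 0.000256 and its adjusted p 0.0129, and it was the only member of 34 with an adjusted p below 0.05, beside 3.81% of all exosome miRNAs. Its M mean was 152 times the mean that 3 reads in the shallowest CK library would give, and 71.4 times without M library 1. limma gave a log2 change of 7.24 (SE 2.53) but an adjusted p of 0.329, and it called 0 of 34 members beside 0% of 307 exosome miRNAs. At an unadjusted p below 0.05 limma had 3 members, 1 lower and 2 higher in M, beside 5.86% lower and 4.89% higher among all 307.

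With it, the authors' deposited table gave 4 of 34 members a p below 0.05 before adjustment, beside 13.9% of all exosome miRNAs. miR-1843a-5p, the near-identical 5p arm of a separate hairpin, had 0, 190 and 89 reads in CK (levels 0, 142 and 37). In M it had 414, 323 and 204 reads (levels 539, 400 and 251), with no overlap. Its p in the authors' deposited table was 0.0382 and its adjusted p 0.302. Both arms of the miR-3594 hairpin, which lies in Cep131, a gene for a centrosome protein, were at 0 reads in all 3 M libraries. miR-3594-3p had 119, 175 and 105 reads in CK. Its CK mean was 84.4 times the mean that 3 reads in the shallowest M library would give. Without CK library 1 it was 67 times that floor. In the authors' deposited table its p was 0.0096 and its adjusted p 0.131, and the limma adjusted p was 0.331. miR-3594-5p had 0, 102 and 439 reads in CK, and its CK mean was 66.2 times the same floor. That ratio was 29.3 without CK library 3 and 99.3 without CK library 1. Its p was 0.0252 and its adjusted p 0.25 in the authors' deposited table. The highest CK library thus differed between the arms, library 1 by level for the 3p arm and library 3 for the 5p arm, and 1 CK library held reads of the 3p arm alone. In heart the same arms had 0 to 9 reads per library.

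Other members lay apart without an adjusted p below 0.05. Every M library lay above every CK library for 4 of 34 members, beside 4.56% of the solved exosome miRNAs, and below for 1, beside 7.49%. The 4 were both miR-1843 5p arms, miR-3559-5p (611, 708 and 546 in CK, 889, 1062 and 987 in M) and miR-6329 (0, 71.8 and 83.6 in CK, 162, 153 and 97.4 in M). The 1 below was miR-3594-3p. The median log2 fold of the members was −0.39, against −0.34 for all exosome miRNAs, and 22 of 34 (64.7%) were lower in M, against 59.1% of all. This median had no stable direction, since it was −1.17 without M library 2 and 0 without CK library 1 or CK library 2. miR-3559-5p was the only member with every M library above every CK library in both tables, and its p in the authors' deposited table was 0.454 for heart and 0.313 for the exosome table.

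The change of miR-1843b-5p between CK and M differed between the 2 tables. In heart miR-1843b-5p had levels of 205, 245 and 194 in CK and 238, 212 and 250 in M. Its share of the reads of both 5p arms was 21.7 to 27.1% in all 6 heart libraries. In the exosome table that share was 43.1, 22.2 and 22.4% in M, but 0 of 190 and 0 of 89 reads in CK libraries 2 and 3, and CK library 1 had no read of either arm. A count of 0 allows a share of up to 1.58% of 190 reads and 3.37% of 89, counting error only. The change of miR-1843b-5p from CK to M was larger in the exosome table than in heart by 7.12 on the log2(level + 1) scale, with a limma adjusted p of 0.00411, and 5 of 273 miRNAs (1.83%) passed that test. With single libraries left out the limma adjusted p was 0.00281 to 0.0289. This test was chosen after the values had been seen, and it uses 1 pooled spread for both tables, although the exosome libraries scattered more and the exosome fit alone gave an adjusted p of 0.329. The authors' treatment of reads that match several miRNAs is not stated, and with a shared run of 20 bases the split between the a and b forms is uncertain. The exosome 3p arms showed no such gap, as the groups overlapped for both. miR-1843a-3p had 117, 208 and 22 reads in CK and 0, 106 and 41 in M. For miR-1843b-3p there were 1, 1 and 77 reads in CK and 40, 0 and 34 in M, and so few reads limit what it could show.

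**Figure D4:**
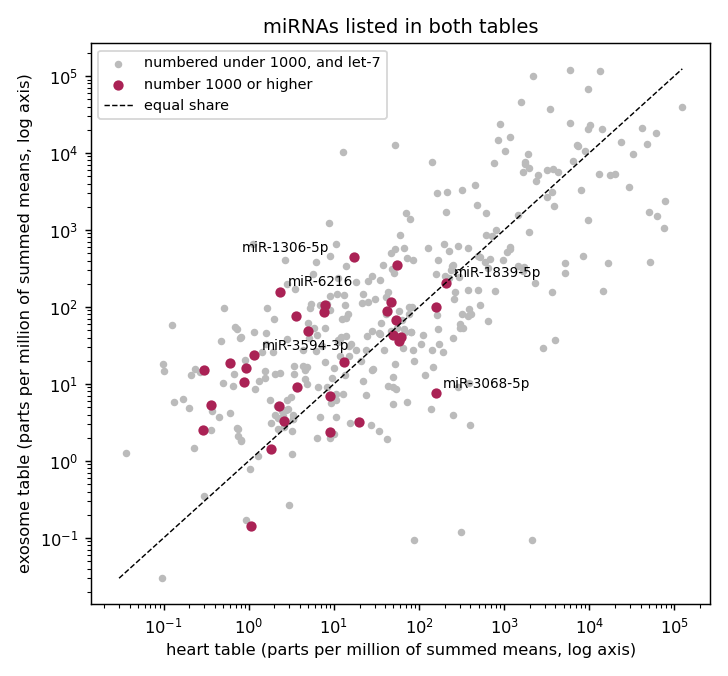
Share of each table's summed means (ppm, log axes) in heart and in the exosome table for miRNAs listed in both, late-numbered ones over older ones, with a line of equal share. Of the 32 late-numbered miRNAs, 21 lie on the exosome side, with miR-6216 and miR-1306-5p far above the line, miR-1839-5p on it and miR-3068-5p far below.

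Shares of the summed means give a description across the tables, which were normalized separately, with no test of level between them. Of the 32 members in both tables, 21 had the larger share in the exosome table, with a median exosome to heart ratio of 2.37. Among the 326 older miRNAs in both, 206 did, with a median of 1.67. Within CK alone 22 of the 32 members and 201 of the older miRNAs had the larger share in the exosome table, and within M alone 16 and 171. Over both groups the ratio was 66.7 for miR-6216, 51.3 for miR-6331, 30.8 for miR-3594-5p, 25.6 for miR-1306-5p and 21.4 for miR-6328, but this order did not hold within groups. The ratio for miR-6216 was 98.7 in CK and 41.3 in M, that for miR-1306-5p 18.7 and 37.9, and that for miR-6328 18.1 and 24. For miR-6331 and miR-3594-5p it was 57.5 and 40.1 in CK, and both were at 0 in the exosome M libraries. Over both groups it was 0.996 for miR-1839-5p (0.806 in CK and 1.21 in M), 0.263 for miR-6321, 0.162 for miR-3585-3p, 0.135 for miR-3586-3p and 0.0477 for miR-3068-5p. Within groups miR-3068-5p was at 0.0297 in CK and 0.0709 in M and miR-3586-3p at 0.07 and 0.301. The exosome reads of miR-3586-3p were only 1 in CK library 2 and 1 in M library 2, so its ratios rest on single reads. miR-3585-3p was at 0.258 in CK and at 0 in the exosome M libraries, and miR-6321, at 0.259 in CK, was at 0 in M in both tables. Among the members listed in heart only, miR-6215, from a hairpin in Iffo2, was the most abundant, with levels of 301, 375 and 258 in CK and 202, 98.9 and 260 in M.

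The arms of 2 hairpins were used in different proportions in the tables, and a share of arms does not depend on how a library was scaled. The 5p share of miR-3068 was 74.4% ± 1.54 (SD, n = 6 libraries) in heart and 8.06% ± 8.92 (n = 6) in the exosome table, with ranges of 72.7 to 77% and 0 to 19.3%. The difference of −66.4 percentage points had an exact 2-sided permutation p of 0.00216, the smallest 6 against 6 can give, and 0.00649 adjusted over 6 hairpins. The 2 tables did not overlap for this hairpin, and the leading arm was 5p in heart and 3p in the exosome table. For miR-3559 the 5p share was 56.4% ± 2.43 in heart and 79.2% ± 7.12 in the exosome table (n = 6 each), a difference of 22.8 points with the same exact permutation p and adjusted p. The 4 remaining hairpins missed the threshold after adjustment. For miR-1306 the shares were 76.5% and 88% (exact permutation p = 0.0411, adjusted 0.0823). For miR-1839 they were 94.1% and 91.5% (adjusted exact permutation p = 0.673), for miR-1843a 73% and 64.4% (0.703) and for miR-1843b 93.2% and 63% (0.257, 4 exosome libraries). Tissue, extraction and library batch cannot be told apart in this comparison. Among hairpins with both arms in both tables, the leading arm differed for 1 of 7 late-numbered hairpins (14.3%), miR-3068, and for 15 of 89 older ones (16.9%). A change of leading arm is another measure than the difference in 5p share. The permutation test was run on late-numbered hairpins only, so how often older ones would pass it was not tested.

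**Figure D5:**
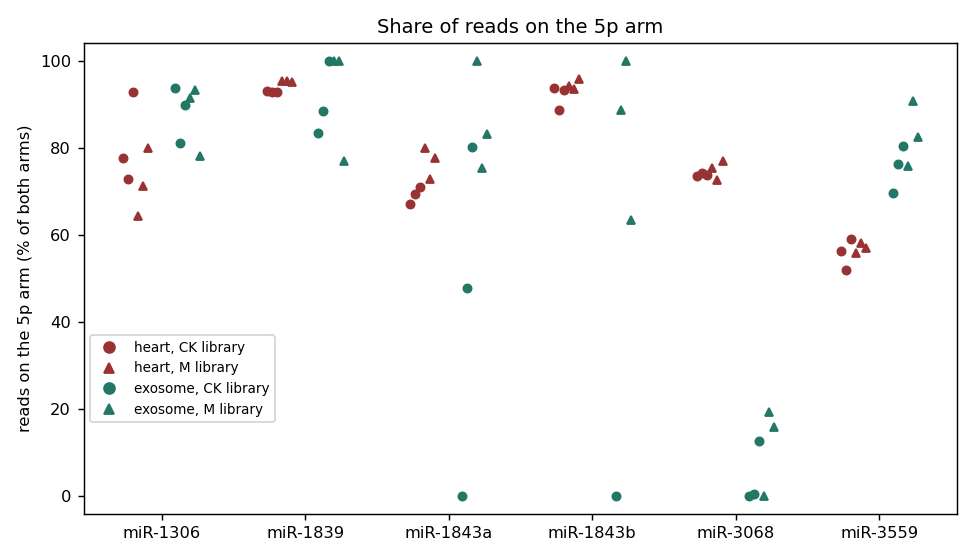
Percent of reads on the 5p arm for hairpins with both arms listed in both tables, except miR-3594, heart beside exosome. Each point is a library with at least 20 reads in both arms together. For miR-3068 the heart libraries lie at 72.7 to 77% and the exosome libraries at 0 to 19.3%, and for miR-3559 the tables also do not overlap.

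Several late-numbered hairpins lie opposite or beside older ones. Of 103 late-numbered hairpins in RefSeq, 24 overlap an older hairpin on the other strand. Only 4 of the 24 were listed in heart and 0 in the exosome table, while the older partners were listed for 24 and 20. miR-3120, opposite miR-214, had 21 reads over all 6 heart libraries, and miR-3074, opposite miR-24-1, had 6. miR-3065-5p, opposite miR-338, and miR-3590-3p, opposite miR-130a, had 1 read each. In the authors' deposited table the summed means of the partners in heart were 2734 for miR-214, 43738 for miR-24, 74.6 for miR-338 and 386 for miR-130a. Reads of miR-24-3p can also come from a second hairpin, so that mean is not of the opposite strand alone.

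The imprinted Dlk1-Dio3 cluster, a large group of miRNA genes, gave weak members. miR-1193-3p had 4, 12 and 9 reads in CK and 1, 14 and 11 in M in heart. miR-1193-5p had 1 heart read in all and miR-3072 had 5, and none of the 3 was listed in the exosome table. miR-1188, miR-1197 and miR-3544, also on the list used for this cluster, were listed in neither table. That list is partial, and miR-3576, miR-3592 and miR-3595, with hairpins near those of the cluster, were also in neither table. miR-6331, whose hairpin RefSeq also places within 10 kb of hairpins of this cluster, had 0, 8 and 2 reads in CK and 0, 1 and 0 in M in heart. Its exosome reads were 96, 0 and 207 in CK and 0 in every M library, with a p of 0.0528 in the authors' deposited table. In heart the rows of miR-3084a-5p and miR-3084b-5p held the same reads in every library, 15 in all, so these 2 rows are not separate evidence.

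Most of the remaining members named for their level overlapped between groups. In heart, miR-3585-3p, whose hairpin lies near Mir201 and Mir547, had levels of 128, 81.8 and 119 in CK and 72.2, 39.2 and 92.6 in M (limma log2 change −0.74, SE 0.36, adjusted p = 0.334). In the exosome table it had 106 reads in CK library 3 alone. miR-3473 had heart levels of 33.6, 32.6 and 21.3 in CK and 59.4, 38.2 and 24.7 in M, and exosome levels of 74.5, 486 and 124 in CK and 69.1, 129 and 296 in M. Both of its comparisons overlapped. miR-6324 was lower in every heart M library, but its exosome levels of 148, 251 and 237 in CK and 207, 533 and 102 in M overlapped. Exosome levels of miR-1249 were 468, 179 and 243 in CK and 242, 411 and 59.2 in M, again overlapping. miR-1306-3p overlapped in both tables, with heart levels of 29.4, 28.9 and 9.03 in CK and 31.8, 22.5 and 14.1 in M and exosome levels of 81, 135 and 125 in CK and 162, 86.6 and 88.7 in M. miR-6319 had 13, 6 and 20 heart reads in CK and 4, 6 and 18 in M, and its exosome reads were 80 in CK library 2 and 10 in M library 3 alone. In heart miR-3577 had levels of 14.7, 15.9 and 10.3 in CK and 19.1, 3.92 and 7.06 in M, and miR-1224 had 0 to 4 reads per library. miR-3541, from a hairpin in Clk2, a gene for a splicing kinase, had exosome reads of 95, 0 and 75 in CK and 30, 25 and 0 in M. Of the heart members, 44 had a mean under 10, including 17 under 1, and so few reads limit what could be detected in them at this depth.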

How the data were processed

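Small RNA was measured in 12 samples, 6 labelled heart and 6 labelled serum. The build mRatBN7.2, DESeq 1.30.0 and Bowtie2 2.2.6 are named, without roles, per the submitters' processing notes. Per the labels' protocols, Trizol was used for RNA and a NEBNext kit for the small RNA libraries. For trimming, annotation release and multi-mapping nothing is given in the sources used here. Per the file headers, the authors deposited for each miRNA the mean normalized signal (counts divided by size factors) over all libraries, for CK and for M. Their deposited fold is the ratio of M to CK, with its deposited log2 value, and their deposited p-value and adjusted p-value were used as the main test at 0.05.

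Reads of single libraries were worked back from the deposited means, which carry 15 significant digits and equal whole reads times 3 fixed steps. A search within a relative tolerance of 8e-15, run where at most 0.01 false solutions were expected, gave exactly 1 solution for each searched mean, and covered every late-numbered miRNA. It covered 499 of 574 miRNAs in heart and 307 of 367 in the exosome table in both groups, and the most abundant ones were out of reach. The solved miRNAs were fitted on log2(level + 1) in limma 3.58.1 (R 4.3.3), with a trended prior and Benjamini-Hochberg adjustment. It was tested on simulated data, as was the search. Arm shares used libraries with at least 20 reads in both arms together. SciPy 1.17.1 gave the exact permutation tests. The limma test between tables, the arm test, its read minimums and the scaling by summed means were added after seeing the data.

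The miRNAs named are those at an unadjusted p below 0.05 in either table, the 8 with the largest means in each, those in both tables with a mean of at least 10 in 1 of them, and those with a mean of 0 in 1 group and at least 10 in the other. Opposite-strand and Dlk1-Dio3 members were named by list, and others only where a count turned on them, chosen after their values were seen. The members and lists were chosen with earlier results of these data known. Gene names and sequences are of another assembly (GRCr8) than the files, so no coordinates are printed. Depth was estimated as the summed means times the size factor. Floors and intervals cover counting error only.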

Additional observations from a re-analysis of the deposited data

Results flagged for a closer look

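For miR-1843b-5p the M against CK difference itself differed between the tables, by 7.12 on the log2(level + 1) scale (limma adjusted p = 0.00411 over 273 miRNAs). The 3 exosome M libraries lay above all 3 CK libraries, which were at 0, while the heart groups overlapped. The test was added after seeing the data. Leaving out 1 library at a time gave differences of 6.40 to 7.63, with adjusted p of 0.00281 to 0.0289. The fit uses 1 pooled spread for both tables, and in the exosome table alone the limma adjusted p was 0.329.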

How the results depend on the processing

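No paired analysis was possible because the deposited columns are group means that carry no replicate number, and the reconstructed libraries cannot be matched to the labelled samples. The 1 heart member called by limma became 0 to 3 members when single libraries were left out. It was lost without CK library 2 or 3 or any M library, and without CK library 1 miR-3099 and miR-3072 (8 and 5 reads in all) were called beside miR-6321. Fewer libraries enter each of those fits. The median heart log2 fold of −0.31 was −0.46 with a pseudocount of 0.5, −0.098 with 5 and −0.25 at a larger mean of at least 10, and −0.42 to −0.25 without single libraries. In place of the 1 exosome member called by the authors, limma called 0, and the cause was not tested. The median exosome log2 fold of −0.39 ran from −1.17 to 0 without single libraries. It was −1.17 without M library 2 and 0 without CK library 1 or 2. Of the 32 members in both tables, 20 had a mean of at least 10 in both, and 21 had a number of 3000 or higher. Both called miRNAs had 0 reads in every library of 1 group, so no alternative run could have changed their direction. Most of the other values moved by less than the spread between libraries (48 of 63 summary values and 487 of 508 single values). The lowest depth, 1696000 estimated reads in an exosome library, limits what was detectable there.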
